A study of Mus musculus with 39 samples.

Results

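Tretinoin is all-trans retinoic acid, the acid form of vitamin A. Here, tumours of mice that received tretinoin without checkpoint antibodies were compared with tumours of mice that received PBS, gene by gene across the whole transcriptome. Of the 39 tumours sequenced, 9 were labelled tretinoin and 10 PBS, and these 19 were taken by that label alone. All of them grew under the skin of BALB/c mice from AB1-HA, an asbestos-derived mesothelioma line that expresses influenza haemagglutinin, so that both groups carried the same line and no engineered allele differed between them. The labels give tretinoin as 5 daily doses of 5 mg/kg that started on day 4, with removal of the tumours on day 9, while parts of the study's text give another dose. The methods describe PBS with DMSO, the solvent of tretinoin, as its control and plain PBS as that of ICT. The labels say only PBS, so that drug and solvent cannot be told apart if these controls had none. The study's text counts each of these tumours as a mouse, which the labels do not state, and the p-values measure the spread between these tumours. A further 20 tumours, 10 after immune checkpoint therapy (ICT, which blocked CTLA-4 together with PD-L1) and 10 after tretinoin with ICT, were used to ask whether the same genes moved when ICT was present, and entered an alternative fit over all 39 tumours.

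Retinoic acid enters cells or is made in them from retinol by a pair of oxidation steps, is carried by CRABP proteins to the nucleus, and binds heterodimers of retinoic acid receptors (RAR) and retinoid X receptors (RXR) that sit on direct repeats of a short DNA core. Its level is held down by feedback, because RAR also switches on CYP26 enzymes that degrade retinoic acid, DHRS3 that turns retinal back to retinol, and LRAT that stores retinol as esters. In tissues it patterns the embryo through Hox genes, and in leukocytes it shapes myeloid differentiation, the homing of lymphocytes to the gut and the function of dendritic cells.

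Levels are CPM, the count of a gene relative to the total of its tumour after TMM normalisation, and are given as mean ± SD over 9 tretinoin and 10 PBS tumours. Differences are log2 fold changes, tretinoin over PBS, with their standard error (SE) and the Benjamini-Hochberg adjusted p of edgeR's quasi-likelihood test. Total counts ran from 15435493 to 20792937 in the tretinoin group and from 16155683 to 23114796 in the PBS group, and any pair of these tumours correlated at an r between 0.953 and 0.989 across genes on the log2 scale. PBS 4 stood apart from its group in leukocyte and interferon genes. Tretinoin 3 stood apart in leukocyte genes, while Tretinoin 2 and 6 were near it in interferon gamma genes. Results that rest on PBS 4 or Tretinoin 3 are also given without them. The first digit of each tumour's name makes 2 series in each group, 1 and 5 for PBS and 3 and 7 for tretinoin. No series holds both treatments, so that treatment and any batch that follows the series cannot be told apart. The transcripts of the Y-linked genes Ddx3y, Eif2s3y and Uty were at 0 in every tumour and Xist lay between 255 and 523 CPM after PBS and 369 to 512 CPM after tretinoin. Of the markers of mesothelium, Vim and Pdpn were present (a mean of 3958 CPM and a range of 57.9 to 75.7 CPM after PBS). Upk3b and Muc16 were at or near 0, with at most 0.06 and 0.1 CPM in any of the 19 tumours. Vim had a log2 fold change of -0.27 (adjusted p = 0.0145). Wt1, at low counts, lay between 0.254 and 1.01 CPM after PBS and between 0.555 and 2.52 CPM after tretinoin. Its log2 fold change was 1.12 (adjusted p = 0.0157), and the groups overlapped. Of 11 tested mesothelial genes, 4 were higher (36.4%, beside 11.5% of all genes) and 1 lower (9.09%, beside 8.95%). The summed level of the list was 4140 to 5780 CPM after PBS and 3580 to 4940 CPM after tretinoin. In whole tumours, fewer cells of a type and less RNA per cell cannot be told apart, and this holds for every marker gene below.

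More genes were higher after tretinoin than lower. Of 14340 genes tested, 213 were called higher (1.49%) and 19 lower (0.132%) at an adjusted p below 0.05 and a log2 fold change of at least 1. Without the fold change minimum, 1645 genes passed in the upward (11.5%) and 1284 in the downward direction (8.95%). The median over all genes was 0.01, which the TMM scaling holds near 0. In 200 genes (1.39%) every tretinoin tumour lay above every PBS tumour, and in 89 (0.621%) every one lay below. Of the 213 called higher, 57 had groups that did not overlap, and of the 19 called lower, 5. The tretinoin tumours varied more among themselves than the PBS tumours, with a median SD of 0.21 against 0.15 on the log2 scale over all tested genes. The spread differed widely among the 213 genes called higher, since 81 had an SD below 0.5 among the tretinoin tumours, and 41 had an SD of at least 1. The count of genes called higher dropped to 131 without Tretinoin 3, and the count called lower rose to 30 without Tretinoin 2 and to 29 without Tretinoin 9.

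The genes that clear and store retinoids showed the clearest difference between the groups. Cyp26b1 (ENSMUSG00000063415.12, GRCm38 chr6:84571414-84593908), which encodes an enzyme that inactivates retinoic acid, ranged from 5.49 to 11.7 CPM with a median of 8.34 after PBS, and from 242 to 386 CPM with a median of 315 after tretinoin. The lowest tretinoin tumour stood far above the highest PBS tumour. Its mean rose from 8.33 ± 1.95 to 303 ± 46.5 CPM, a log2 fold change of 5.19 (SE 0.13, adjusted p = 1.99e-16) or 36.5-fold. Dhrs3 (ENSMUSG00000066026.14, chr4:144892827-144928209), the retinal reductase, lay between 36.9 and 52 CPM after PBS and between 253 and 322 CPM after tretinoin. It rose by 2.66 (SE 0.07, adjusted p = 8.59e-17), again without overlap and with an SD of 28.5 CPM among the treated tumours. Lrat (ENSMUSG00000028003.6, chr3:82892579-82903973), which esterifies retinol for storage, was hardly detected after PBS (0 to 0.302 CPM, median 0.0526) and reached 0.691 to 3.47 CPM (median 2.52) after tretinoin. Its log2 fold change was 4.92 (SE 0.43, adjusted p = 9.71e-08), and tumours 3 and 6 were the lowest treated tumours at 0.691 and 1.17 CPM. Of 9 tested genes of storage and clearance, 3 were higher (33.3%, beside 11.5% of all genes) and 1, Cyp2s1, was lower (11.1%, beside 8.95%). Cyp2s1, a cytochrome that can act on retinoids, went from 20.4 ± 12.5 to 8.41 ± 6.08 CPM (log2 fold change -1.28, adjusted p = 0.0438), and its call was kept in only 7 of the 19 fits that each left out 1 tumour.

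**Figure D1:**
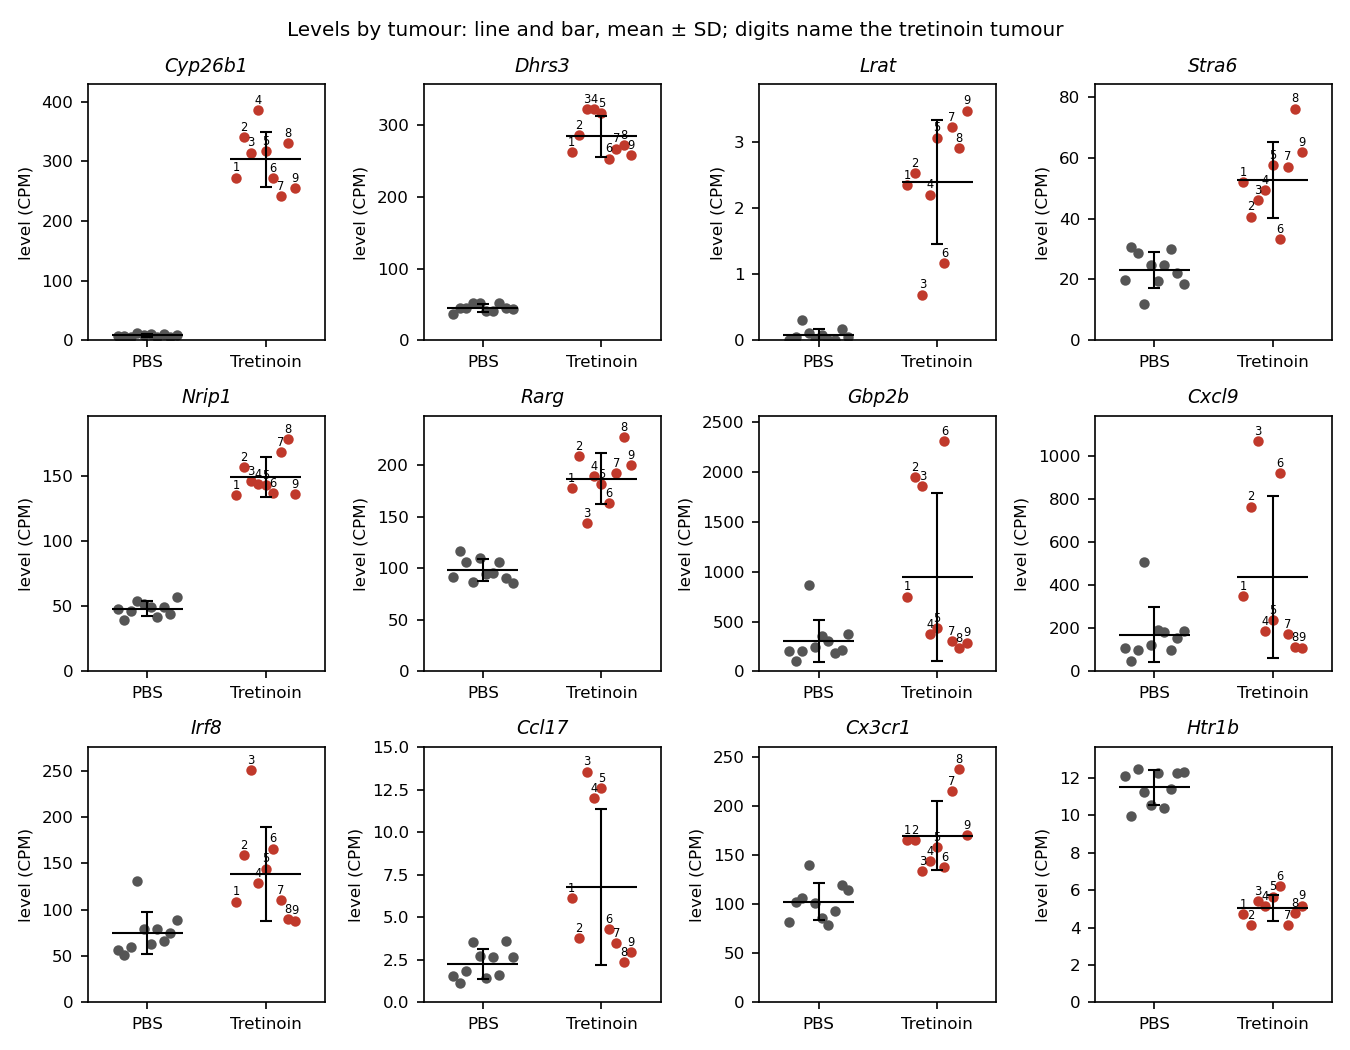
Level in CPM (y axis, linear, from 0) of 12 genes in each of the 10 PBS tumours (grey) and 9 tretinoin tumours (red, each with its number), with the mean as a line and the SD as a bar. Cyp26b1, Dhrs3, Lrat, Stra6, Nrip1, Rarg and Htr1b have groups that do not overlap, whereas Gbp2b and Cxcl9 are high in tretinoin tumours 2, 3 and 6 and in 1 PBS tumour, and Ccl17 is highest in tretinoin tumours 3, 4 and 5.

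Synthesis and transport moved less. Of 17 tested genes, 3 were higher (17.6%) and 2 lower (11.8%), with a median log2 fold change of -0.08. These shares were near the 11.5% and 8.95% of all genes. Stra6, the cell-surface receptor that takes up retinol from its plasma carrier, rose from 23.1 ± 5.84 to 52.6 ± 12.5 CPM (log2 fold change 1.20, SE 0.16, adjusted p = 3.43e-05) and Crabp2, which delivers retinoic acid to RAR, from 70.9 ± 6.97 to 112 ± 14.3 CPM (0.67, adjusted p = 1.14e-06). In both genes the groups did not overlap. Rdh10, a dehydrogenase of the first oxidation step, and Rdh11 fell by 0.23 and 0.17 on the log2 scale (adjusted p = 0.000185 and 0.0164). For Rdh10 all 9 treated tumours were below every PBS tumour. Aldh1a2, which makes retinoic acid in mesothelium and in gut dendritic cells, went from 2.37 ± 0.802 to 3.71 ± 1.42 CPM (adjusted p = 0.0424), a call kept in 5 of 19 fits with 1 tumour left out.

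Among the receptors and their coregulators, 4 of 16 tested genes rose (25%, beside 11.5% of all genes) and none fell, beside 8.95% of all genes. Nrip1, a ligand-dependent corepressor and a well known direct target of RAR, lay between 39.4 and 57.2 CPM after PBS and between 135 and 178 CPM after tretinoin. It rose by 1.64 (SE 0.07, adjusted p = 4.64e-13). Rarg, one of the RAR genes, rose from 98.1 ± 10.6 to 187 ± 24.6 CPM (0.94, adjusted p = 2.3e-08), the coactivator Ncoa3 by 0.83 and the orphan receptor Nr2f2 by 0.75 (adjusted p = 1.81e-06 and 1.67e-07). In all 4 genes the groups did not overlap. Rara, Rxra and Rxrb did not pass the test, with log2 fold changes of -0.10, 0.04 and 0.03 (SE 0.07, 0.06 and 0.04, adjusted p = 0.27, 0.624 and 0.606). Rarb and Cyp26a1 were not analysed here.

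Targets of retinoic acid known from other tissues were moved only in part. Of 31 tested genes, 6 were higher (19.4%, beside 11.5% of all genes) and none lower (beside 8.95%), with a median log2 fold change of 0.20. Tgm2, a transglutaminase that retinoic acid induces in myeloid cells, ranged from 111 to 245 CPM after PBS and from 375 to 1114 CPM after tretinoin, and rose by 1.98 (SE 0.20, adjusted p = 1.96e-06). Asb2, a ubiquitin ligase subunit first found as a gene induced in leukaemia cells by retinoic acid, rose from 3.77 ± 0.985 to 10.8 ± 3.04 CPM (1.52, adjusted p = 2.63e-06). Without Tretinoin 6 the number of targets higher was 10. Of 31 tested Hox genes, 5 were higher (16.1%) and 3 lower (9.68%), shares near the 11.5% and 8.95% of all genes, and none were lower with all 39 tumours in one fit. The risers included Hoxb4 and Hoxb3 (0.73 and 0.82, adjusted p = 3.39e-06 and 4.87e-06), both near the end of their cluster that answers to retinoic acid in the embryo, and Hoxd8 and Hoxd13 were among the genes that fell, by 0.22 and 0.19 (adjusted p = 0.00371 and 0.00481). Across all 4 retinoid lists, 7 genes were called higher with a log2 fold change of at least 1, and the groups did not overlap in any of the 7. Over all tested genes, 213 were called higher (1.49%), and the groups did not overlap in 57 of the 213.

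Promoters were searched for the DNA core of RAR and RXR, as AGGTCA, or in the form AGTTCA, in the form GGGTCA, in the form GGTTCA, in the form AGGTGA, in the form AGTTGA, in the form GGGTGA or in the form GGTTGA, repeated in the same direction with 1, 2 or 5 bases between, on either strand. The windows were those of RefSeq on GRCm38.p6, from 250 bases before to 50 after each gene's start, and 9765 of the tested genes had one (68.1%). None of the 6 called retinoid genes with a window (Cyp26b1, Dhrs3, Lrat, Nrip1, Stra6 and Asb2) held such a repeat, which says only that these letters are not in this window. Of the 142 genes called higher with a window, 5 held 1 (3.52%), beside 1.36% of tested genes and 1.39% of all 32851 windows. Of these 5, Hrh1 (chr6:114403416-114403454, plus strand) is a histamine receptor. Pdk4 (chr6:5496279-5496318, minus strand) is a kinase that holds back pyruvate oxidation, and Tnfsf13b (chr8:10006225-10006281, plus strand) is the B cell survival factor BAFF. Hrh1 and Pdk4 were chosen after their values were seen. The others of the 5, 4930431P03Rik and Ms4a8a, are not printed. In the stretches of Hrh1, Pdk4 and Tnfsf13b that follow, the repeat is in capitals.
Hrh1: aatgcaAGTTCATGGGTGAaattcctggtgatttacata
Pdk4: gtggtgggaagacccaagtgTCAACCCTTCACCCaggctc
Tnfsf13b: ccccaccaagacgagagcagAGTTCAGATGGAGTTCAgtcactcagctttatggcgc
Hrh1 rose from 0.601 ± 0.184 to 1.53 ± 0.489 CPM (1.34, adjusted p = 6.03e-05) without overlap, Pdk4 from 9.54 ± 4.86 to 21.8 ± 8.14 CPM (1.19, adjusted p = 0.00544) and Tnfsf13b from 7.21 ± 1.79 to 15.6 ± 6.63 CPM (1.12, adjusted p = 0.000686).

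Outside the retinoid lists, the largest rises fell on genes of varied function. Inmt, a methyltransferase of indole amines, was at 0 to 0.693 CPM after PBS (median 0.363) and at 7.57 to 24.6 CPM after tretinoin (median 10.9), a log2 fold change of 5.05 (SE 0.34, adjusted p = 3.06e-09). Calcb, which encodes the vasodilator peptide beta-CGRP, rose from 0.978 ± 0.358 to 7.96 ± 2.65 CPM (3.02, adjusted p = 6.19e-09). Lgr6, a receptor for R-spondins that marks epithelial stem cells, rose from 3.95 ± 1.1 to 22.4 ± 5.22 CPM (2.51, adjusted p = 5.68e-10). Cd38, an ectoenzyme that consumes NAD and is induced by retinoic acid in myeloid leukaemia cells, lay between 7.13 and 19.3 CPM after PBS and between 27.7 and 109 CPM after tretinoin, and rose by 2.39 (SE 0.22, adjusted p = 4.8e-07). The groups did not overlap in any of these 4 genes, nor in Art2a-ps, which rose by 3.33 (adjusted p = 2.92e-07). Art2a-ps, of a T cell surface ADP-ribosyltransferase, is annotated on the reference genome as a polymorphic pseudogene. Whether its copy in BALB/c is intact was not tested. Ido1, the interferon-induced enzyme that degrades tryptophan, and Chil3, a chitinase-like protein of macrophages, rose by 2.51 and 2.45 (adjusted p = 0.0165 and 0.0249), but with wide spread, from 0.604 to 15.6 and from 0.604 to 40.4 CPM among treated tumours, and the call of Chil3 was lost without Tretinoin 3. Rpl35a-ps4, a processed pseudogene that can share reads with its parent gene, had a log2 fold change of 4.22 with treated tumours between 0.851 and 141 CPM and is uncertain.

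Besides Dhrs3, Cyp26b1 and Nrip1, the genes with the smallest p had smaller rises. Smad3, which carries TGF-beta signals to the nucleus, went from 99.5 ± 4.54 to 173 ± 7.72 CPM, a log2 fold change of 0.81 (SE 0.04, adjusted p = 1.04e-12), with treated tumours between 165 and 187 and PBS tumours between 94.2 and 109 CPM. Slc25a51, the mitochondrial carrier of NAD, rose by 0.81 (SE 0.04, adjusted p = 9.7e-12). Aifm2, a reductase that protects against ferroptosis, rose by 0.99, Epn2, an endocytic adaptor, by 0.91, the kinase Camkk1 by 1.08 and the lipid transfer protein Pitpnc1 by 0.96 (adjusted p = 3.26e-11, 7.03e-11, 8.03e-11 and 1.68e-10). Their SDs among the treated tumours lay between 0.06 and 0.15 on the log2 scale, and the groups did not overlap.

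Falls of at least 1 were fewer. Htr1b, a serotonin receptor, lay between 9.96 and 12.5 CPM after PBS and between 4.12 and 6.2 CPM after tretinoin, and fell by 1.18 (SE 0.08, adjusted p = 1.91e-09). Lhx9, a homeobox gene of limb and gonad, and Mfap3l, a membrane protein gene, fell by 1.12 and 1.28 (adjusted p = 0.000136 and 0.000704). Fos, an immediate early transcription factor, fell by 1.10 (adjusted p = 3.7e-06). In these 4 genes every treated tumour was below every PBS tumour. With ICT present, the log2 fold change of Fos was 0.69 and did not pass (adjusted p = 0.48). Below the fold change minimum, Adamts1, a protease of matrix proteoglycans, fell by 0.75 (SE 0.05, adjusted p = 3.06e-09), again without overlap. Amd2 and Gm8451, which are near copies of other genes, had log2 fold changes of -3.43 and -2.11, with PBS tumours of 1.08 to 61.7 and 3.19 to 96 CPM, and are uncertain because their counts may be split with those copies. The call of Gm8451 held in 11 of the 19 fits with 1 tumour left out.

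Genes of the interferon gamma response were higher in some of the treated tumours. Of 31 tested genes of this list, 21 rose and none fell, beside 11.5% of all genes in the upward direction, 19 of them by at least 1, and the median log2 fold change was 1.22. Gbp2b, a guanylate binding protein that attacks intracellular microbes, lay between 105 and 867 CPM (median 231) after PBS and between 233 and 2311 CPM (median 433) after tretinoin, and rose by 1.64 (SE 0.51, adjusted p = 0.03). Tumours 2, 3 and 6 were at 1951, 1855 and 2311 CPM, and the other 6 treated tumours were below the highest PBS tumour, PBS 4, at 867 CPM. The same order was seen over the whole list, whose mean log2 CPM was 4.96 to 7.48 in PBS tumours, with PBS 4 highest, and 8.20, 8.43 and 8.42 in tretinoin tumours 2, 3 and 6, against 5.87 in the lowest treated tumour. All 19 genes called by at least 1 were above every PBS tumour in each of tumours 2, 3 and 6, 1 was in tumour 1, and none were in tumours 4, 5, 7, 8 or 9. Chosen by the level of these same genes, these tumours are named here as a description only.

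The number of interferon gamma genes that passed moved with single tumours. It was 6 without Tretinoin 2, Tretinoin 3 or Tretinoin 6, between 8 and 12 without PBS 1, 2, 3, 5, 6, 7, 8 or 9, and at most 30 in any fit with 1 tumour left out. Without both PBS 4 and Tretinoin 3 it was 29. With 1 series of each group it was 14 for series 3 against series 5 and 0 in the other 3 pairings. Irf8, a factor of the interferon response and of dendritic cell development, rose from 75.1 ± 22.8 to 138 ± 50.5 CPM (0.90, adjusted p = 0.0047), and Irf1 and the tRNA synthetase gene Wars by 1.01 and 1.05 (adjusted p = 0.01 and 0.00872), in all 19 of those fits. The calls of the GTPase genes Igtp and Irgm2 (1.33 and 1.14, adjusted p = 0.0323 and 0.0327) held in 10 of the 19 and that of Gbp2b in 14. Gbp2, Gbp3, Tgtp1 and Tgtp2 rose by 1.39, 1.22, 1.25 and 1.17 (adjusted p = 0.0353, 0.0481, 0.0425 and 0.0439), with calls that held in 8, 6, 6 and 6 of the 19. Tgtp1 and Tgtp2 are nearly identical and may share reads. Cxcl9, a chemokine for T cells, and Cd274, which encodes PD-L1, did not pass, with log2 fold changes of 1.38 (SE 0.50, adjusted p = 0.0608) and 1.25 (SE 0.44, adjusted p = 0.0511). Both were highest in tumours 2, 3 and 6, Cxcl9 at 765, 1068 and 919 CPM beside a median of 137 after PBS.

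**Figure D2:**
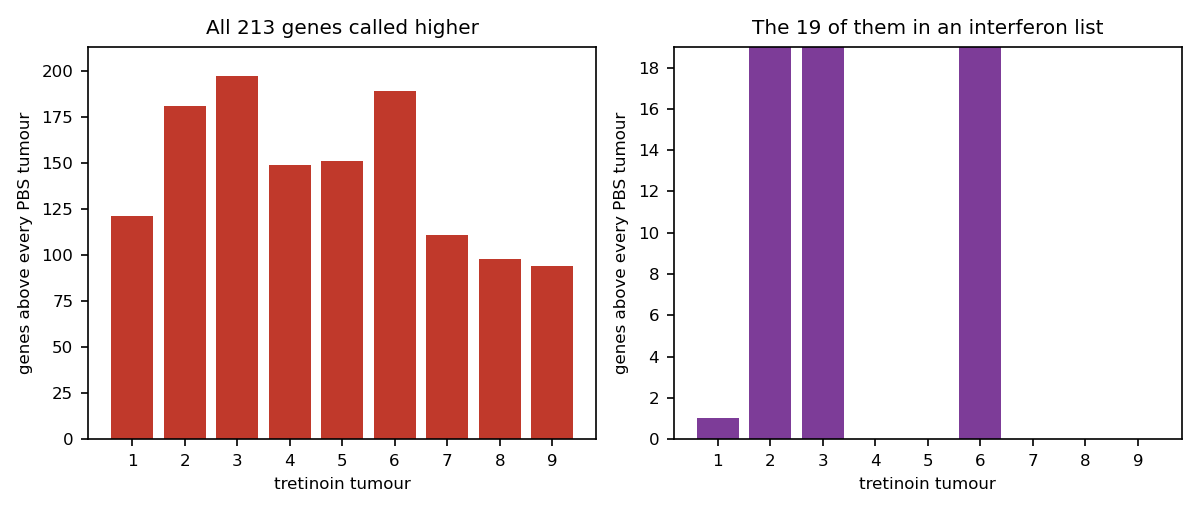
Number of genes (y axis) that lay above every PBS tumour in each of the 9 tretinoin tumours (x axis), for all 213 genes called higher (left) and for the 19 of them in an interferon list (right). The left bars run from 94 in tumour 9 to 197 in tumour 3, and the right bars stand at 19 in tumours 2, 3 and 6, at 1 in tumour 1 and at 0 in the rest.

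The promoters of these genes are shown because most of them hold an element that few tested genes have. The interferon response element, searched as GAAANNGAAA on both strands, was found in 7 of the 10 called interferon gamma genes that had a window (70.0%), against 4.01% of the 9765 tested genes. Over all tested genes of the list with a window it was in 11 of 19 (57.9%). In the stretches of 50 bases that follow, in the direction of the gene, the match is in capitals. A match on the opposite strand appears as its reverse complement. Gbp3 held a further match, from base -39 of the gene's start, which overlaps the match in capitals from base -45. The last bases of that further match are in lower case.
Gbp2b (chr3:142594690-142594739, plus strand): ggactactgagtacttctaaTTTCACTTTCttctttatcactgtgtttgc
Gbp2 (chr3:142620584-142620633, plus strand): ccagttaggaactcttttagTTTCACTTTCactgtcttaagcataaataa
Gbp3 (chr3:142559979-142560028, plus strand): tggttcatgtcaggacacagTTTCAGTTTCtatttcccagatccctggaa
Igtp (chr11:58199502-58199551, plus strand): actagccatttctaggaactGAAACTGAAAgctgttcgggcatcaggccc
Irgm2 (chr11:58214893-58214942, plus strand): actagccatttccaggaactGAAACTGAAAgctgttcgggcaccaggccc
Tgtp1 (chr11:48992294-48992343, minus strand): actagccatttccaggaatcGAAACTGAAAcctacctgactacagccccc
Tgtp2 (chr11:49064253-49064302, minus strand): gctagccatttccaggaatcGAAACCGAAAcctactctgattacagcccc
The windows of Igtp, Irgm2, Tgtp1 and Tgtp2 resemble each other around the element, and these are related GTPase genes. The gamma-activated site, TTCNNNGAA, was in 6 of the 10 (60.0%), among them Irf1, against 8.53% of tested genes. Among all genes called higher, the response element was in 2 of 36 windows where the groups did not overlap (5.56%) and in 15 of 106 where they did (14.2%), and the gamma-activated site in 1 of 36 (2.78%) and 24 of 106 (22.6%). A match is a description of these letters and no evidence that a factor bound there.

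Antigen presentation genes rose in part. Of 21 tested MHC class I genes, 6 rose (28.6%) and none fell, and of 10 tested class II genes, 4 rose (40%) and none fell. Among all genes, 11.5% rose and 8.95% fell. H2-Q4, a non-classical class I gene, rose from 259.7 ± 54.9 to 376 ± 103 CPM (0.55, adjusted p = 0.0117) and Tapbpl, which edits the peptides of class I molecules, by 0.79 (adjusted p = 0.0214). H2-Ab1, the beta chain of the class II molecule I-A, rose from 189.6 ± 90.2 to 396 ± 288 CPM (1.08, adjusted p = 0.0291), and H2-Oa, which restrains peptide loading in B cells, by 0.80 (adjusted p = 0.00381). PBS 4 and Tretinoin 3 were the highest of their groups for H2-Ab1, at 429.9 and 1124 CPM, and its call was lost without Tretinoin 3, PBS 1 or PBS 2. The class I count was 18 without PBS 4, 15 and 13 without Tretinoin 8 and 9, 3 without PBS 1, 2, 3, 5, 6, 7, 8 or 9, and 2 without Tretinoin 2, 3 or 6. The class II count was 9 without PBS 4, 7 without Tretinoin 8 or 9, 2 without PBS 3, 6, 7 or 9 or Tretinoin 2 or 6, and 1 without PBS 1, PBS 2 or Tretinoin 3.

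Fewer type I interferon genes passed the test, 3 of 32 tested genes higher (9.38%) and none lower, a share near the 11.5% of all genes. Zbp1, a sensor of nucleic acids that carries a Z-form binding domain, rose by 0.98 (adjusted p = 0.0317, held in 10 of 19 fits with 1 tumour left out) and Trim30d by 0.48 (adjusted p = 0.03, held in 13). The count was 6 without PBS 4, 5 without Tretinoin 4, 1 without PBS 1, 3 or 9, and 0 without PBS 2, 5 or 8 or Tretinoin 2, 3 or 6.

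Macrophage genes were among the lists with the largest share that rose. Of 17 tested genes, 11 were higher (64.7%, beside 11.5% of all genes) and none lower. The count was between 9 and 12 when any 1 tumour was left out. With single series it was 5 and 10 for tretinoin series 3 and 1 and 4 for series 7, against PBS series 1 and 5. Cx3cr1, the fractalkine receptor of resident macrophages, lay between 78.4 and 139.8 CPM after PBS and between 133 and 238 CPM after tretinoin, and rose by 0.74 (SE 0.12, adjusted p = 0.000189). Mertk, a receptor for the uptake of dying cells, rose by 0.55 (adjusted p = 0.000394). For each of these 2 genes, 7 of 9 treated tumours exceeded every PBS tumour. The summed level of the macrophage markers in the table was 3800 to 5710 CPM after PBS and 4600 to 8950 CPM after tretinoin, with Tretinoin 3 highest.

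Complement genes were higher in 15 of 24 tested cases (62.5%, beside 11.5% of all genes) and lower in none. C5ar1, the receptor for the anaphylatoxin C5a on myeloid cells, lay between 26.1 and 38.9 CPM after PBS and between 55.6 and 97.6 CPM after tretinoin, and rose by 1.26 (SE 0.10, adjusted p = 3.74e-08). The rest of the list depended on single tumours: the count was 6 without PBS 1 or Tretinoin 3, 7 without PBS 2 or Tretinoin 2, 8 without PBS 3, PBS 5 or Tretinoin 6, and 9 without PBS 6 or PBS 9.

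Genes of alternatively activated macrophages rose in part. Of 19 tested genes, 8 were higher (42.1%, beside 11.5% of all genes), 7 of them by at least 1, and none lower. Irf4, a transcription factor of that state and of a subset of dendritic cells, lay between 4.36 and 9.54 CPM after PBS and between 9.47 and 23.6 CPM after tretinoin and rose by 1.01 (SE 0.17, adjusted p = 0.000264). Ccl17, a chemokine for cells that carry CCR4, ranged from 1.14 to 3.59 CPM after PBS, and tretinoin tumours 3, 4 and 5 were at 13.6, 12 and 12.6 CPM. Its log2 fold change was 1.59 (SE 0.35, adjusted p = 0.00352). Ear2, an eosinophil-associated ribonuclease, rose by 1.09 (adjusted p = 0.0225). The count was 5 without Tretinoin 3.

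Dendritic cell genes rose in part, 6 of 18 tested genes of conventional (33.3%) and 4 of 13 of migratory dendritic cells (30.8%), with none lower. Of all genes, 11.5% rose. With single series the counts were between 0 and 5 for conventional and between 1 and 5 for migratory dendritic cells. Clec9a, a receptor for dead cells on cross-presenting dendritic cells, rose from 6.26 ± 2.11 to 14.3 ± 5.1 CPM (1.20, SE 0.21, adjusted p = 0.000481). Batf3, a factor that those cells require, rose by 1.34 (adjusted p = 0.017). Tretinoin 3 was the highest tumour for Batf3, at 12.5 CPM beside a treated median of 3.34. Batf3 passed in all 19 fits with 1 tumour left out, with log2 fold changes from 0.83 to 1.46. Cd200, a ligand that restrains myeloid cells and is carried by migratory dendritic cells, rose by 0.79 (SE 0.08, adjusted p = 1.28e-06) without overlap between the groups.

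T cell genes did not pass the test in either direction. None of 19 did by edgeR or by DESeq2 at an adjusted p below 0.05, 3 had an unadjusted p below 0.05 by edgeR, and their median log2 fold change was 0.34. Cd3e, a chain of the T cell receptor complex, had a log2 fold change of 0.42 (SE 0.18, adjusted p = 0.108) and Cd8a, which marks cytotoxic T cells, one of 0.46 (SE 0.28, adjusted p = 0.246). The summed level of the list was 207 to 395 CPM after PBS and 186 to 544 CPM after tretinoin, with PBS 4 and Tretinoin 3 the highest of their groups. Of 12 tested genes of cytotoxic and NK cells, 2 rose (16.7%), a share near the 11.5% of all genes. Tbx21, the transcription factor T-bet, rose by 1.07 (adjusted p = 0.00244) and Eomes by 0.59 (adjusted p = 0.0405), the latter in only 5 of the 19 fits with 1 tumour left out. The count for that list was 6 without PBS 4, 4 without Tretinoin 9, and 1 without any 1 of the other PBS tumours or of Tretinoin 2, 3, 4, 5 or 6. Of 10 tested genes in a list of gut homing and mucosal genes, 4 were higher (40%, beside 11.5% of all genes). They were Itga4 and Itgb7, the chains of an integrin that binds mucosal vessels (0.76 and 0.47, adjusted p = 0.00481 and 0.00164), the aryl hydrocarbon receptor gene Ahr, and Aldh1a2, whose call held in 5 of 19 fits with 1 tumour left out. The count was 2 with all 39 tumours in one fit, and 0 and 1 for tretinoin series 7 against PBS series 1 and 5.

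Among secreted signals, 7 of 27 chemokine genes were higher (25.9%) and 1 lower (3.7%), beside 11.5% and 8.95% of all genes. Ccl6, a myeloid chemokine, rose from 112 ± 28.1 to 218 ± 97.6 CPM (0.97, adjusted p = 0.00828), and Cxcl13, which attracts B cells, fell from 42.4 ± 17.5 to 21.1 ± 10.1 CPM (adjusted p = 0.0272), a call lost without PBS 6 or PBS 7. The chemokine count lower was 2 without Tretinoin 1, 3 or 6. Of 28 cytokine genes, 8 were higher (28.6%) and 1 lower (3.57%), the macrophage growth factor Csf1 (-0.21, adjusted p = 0.0463, held in 6 of 19 fits). Il1a, the alarmin interleukin-1 alpha, rose by 2.38 (SE 0.48, adjusted p = 0.00182), with Tretinoin 3 at 14.5 CPM beside a treated median of 2.38. The cytokine count was 2 without Tretinoin 3 or 6, 3 without PBS 1, 2 or 5 or Tretinoin 2, 4 without PBS 3, 9 or 10, and 5 without PBS 6, 7 or 8 or Tretinoin 4. Tnf had a log2 fold change of 0.50 (SE 0.26, adjusted p = 0.172). Of 24 genes of toll-like receptors and the inflammasome, 8 were higher (33.3%), with the TLR4 adaptor Ticam2 at 0.86 (adjusted p = 0.00102). In the same list 1, Tlr2, was lower (4.17%), by 0.34 (adjusted p = 0.0295), a call lost without Tretinoin 4 or Tretinoin 5.

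Genes of osteoclasts and of the multinucleated macrophages that resemble them fell in part. Of 16 tested genes, 5 were lower (31.2%, beside 8.95% of all genes) and 1 higher (6.25%, beside 11.5%). Rufy4, Atp6v0d2, Acp5 and Ctsk serve the ruffled border, proton pumping and matrix digestion of osteoclasts. Atp6v0d2 lay between 20.5 and 113 CPM (median 40) after PBS and between 4.54 and 36.1 CPM (median 12.6) after tretinoin. It fell by 1.44 (SE 0.42, adjusted p = 0.0229) and Rufy4 by 1.63 (adjusted p = 0.00905). All 9 treated tumours were below the PBS median in both genes, and 6 of 9 below every PBS tumour. Ctsk fell by 1.08 and Acp5 by 1.15 (adjusted p = 0.03 and 0.0465), in 14 and in 5 of the 19 fits with 1 tumour left out. Tnfrsf11a, which encodes RANK, the receptor that starts osteoclast formation, fell by 0.38 (SE 0.08, adjusted p = 0.0019). Tcirg1, a proton pump subunit that other macrophages also use, rose by 0.57 (adjusted p = 0.000127). PBS 1 was the highest tumour for Acp5, at 401 CPM, and the count lower was 3 without PBS 1, PBS 6 or Tretinoin 3, 4 or 5, and 8 without Tretinoin 2.

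**Figure D3:**
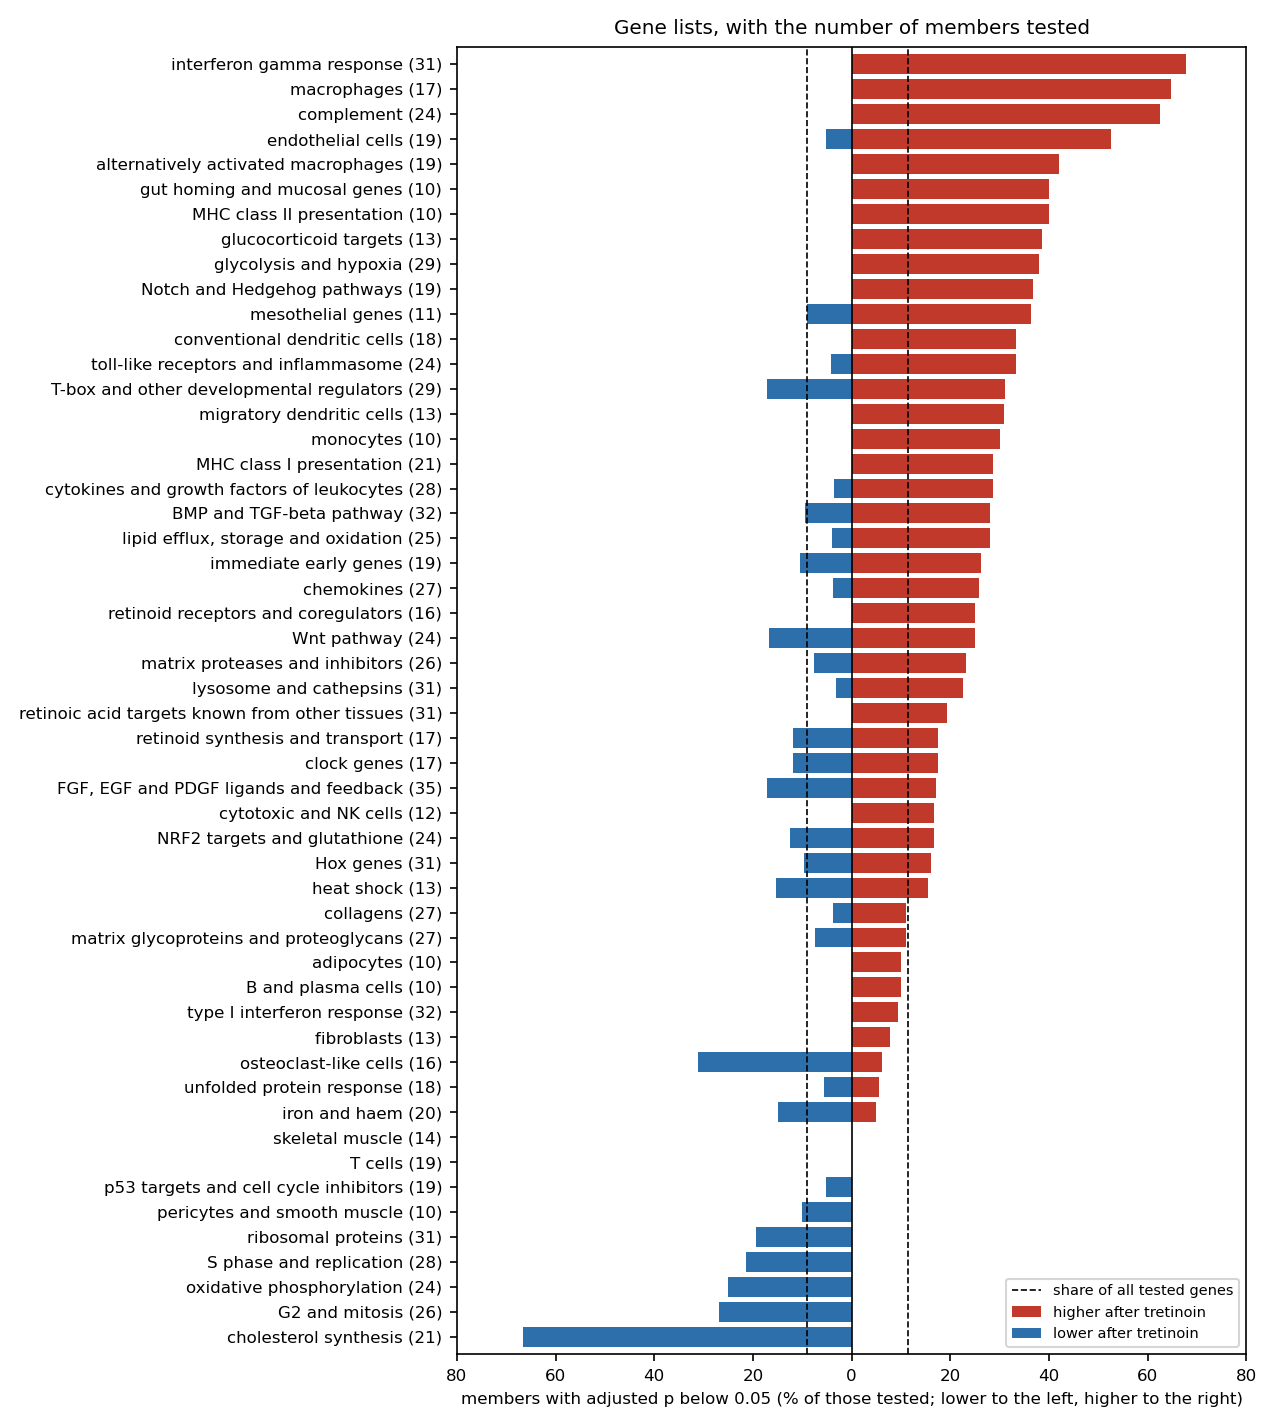
Share of the tested genes of each list (%, x axis) with an adjusted p below 0.05, higher after tretinoin to the right (red) and lower to the left (blue), for lists with at least 10 tested genes (number in brackets). The dashed lines mark the shares of all 14340 tested genes, 11.5% and 8.95%. Interferon gamma, macrophage and complement genes lie farthest to the right, and cholesterol synthesis farthest to the left at 66.7%.

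Endothelial genes were higher in part. Of 19 tested endothelial genes, 10 rose (52.6%) and 1 fell (5.26%), beside 11.5% and 8.95% of all genes. The number that rose was between 9 and 12 with any 1 tumour left out. With single series it was 6 and 7 for tretinoin series 3 and 1 and 4 for series 7, against PBS series 1 and 5. Sox17, a transcription factor of arterial endothelium, lay between 2.42 and 4.13 CPM after PBS and between 4.61 and 8.1 CPM after tretinoin, and rose by 1.08 (SE 0.12, adjusted p = 1.65e-06). Robo4, a receptor that steadies vessels, rose by 0.59 (adjusted p = 7.12e-05), while Sele, the E-selectin of inflamed endothelium, fell by 0.60 (SE 0.08, adjusted p = 2.25e-05). The groups did not overlap in any of the 3 genes. Of 10 tested genes of pericytes and smooth muscle, 1 fell (10%, near the 8.95% of all genes), the pericyte proteoglycan Cspg4, by 0.99 (adjusted p = 0.0106).

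Genes of developmental signalling moved in both directions, as did all tested genes (11.5% higher and 8.95% lower). In the Wnt pathway, 6 of 24 tested genes rose (25%) and 4 fell (16.7%). The ligand Wnt9a rose from 10.4 ± 2.68 to 33.3 ± 11.7 CPM (1.68, SE 0.20, adjusted p = 1.05e-05) and the coreceptor Lrp5 by 0.65 (adjusted p = 8.18e-06), in both without overlap. The receptor Fzd5 and Axin2, a feedback target of beta-catenin, fell by 0.47 and 0.44 (adjusted p = 2.87e-06 and 0.000519). In the BMP and TGF-beta pathway, 9 of 32 rose (28.1%) and 3 fell (9.38%, near the share of all genes). With Smad3, the ligand Bmp2 rose by 0.91 (adjusted p = 4.37e-06), and the BMP antagonist Grem1 and the receptor Bmpr1a fell by 0.51 and 0.15 (adjusted p = 0.000644 and 0.00306). The number that fell was 5 without PBS 4 and 6 without Tretinoin 8. Notch and Hedgehog genes were higher in 7 of 19 tested cases (36.8%) and lower in none. Among those higher was the receptor Notch2 (0.46, adjusted p = 3e-05), in which the groups did not overlap. Of 29 tested developmental regulators, 9 rose (31%) and 5 fell (17.2%). Among them were Tbx3 of limb and mammary development (0.68, adjusted p = 1.53e-06) and Six4, a factor of muscle progenitors (-0.63, adjusted p = 5.71e-07). Of 35 genes of FGF, EGF and PDGF signalling, 6 rose (17.1%) and 6 fell (17.1%). The FGF-responsive factors Etv5 and Etv4 went in opposite directions (0.36 and -0.36, adjusted p = 0.00243 and 0.000134).

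Genes of glycolysis and hypoxia were higher in 11 of 29 tested cases (37.9%, beside 11.5% of all genes) and lower in none. Adm, the hypoxia-induced vasodilator adrenomedullin, lay between 5.43 and 7.68 CPM after PBS and between 13 and 18.1 CPM after tretinoin, and rose by 1.26 (SE 0.07, adjusted p = 1.21e-10). Vegfa, the main growth factor of endothelium, rose from 53.6 ± 7.53 to 103 ± 34.7 CPM (0.96, adjusted p = 0.000136), without overlap, and Hk2, a hexokinase, from 60.5 ± 9.97 to 123 ± 39.6 CPM (1.04, adjusted p = 0.000169). The count was 7 when all 39 tumours were fitted together.

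Cholesterol synthesis had the largest share of genes that fell, 14 of 21 (66.7%, beside 8.95% of all genes), with none higher and a median log2 fold change of -0.26. Fdps and Idi1, which make the isoprenoid units of the pathway, fell by 0.42 and 0.41 (SE 0.08 and 0.08, adjusted p = 0.00114 and 0.00161), from 76.6 ± 4.12 to 56.8 ± 10.6 and from 160.3 ± 10.6 to 120.5 ± 21.8 CPM. All 9 treated tumours were below the PBS median in both genes. The count stayed between 10 and 15 with any 1 tumour left out, but was 0 when the 4 tretinoin tumours of series 7 were set against either PBS series. Proliferation genes showed smaller falls, 7 of 26 genes of mitosis (26.9%) and 6 of 28 of DNA replication (21.4%), with none higher and medians of -0.18 and -0.13. Birc5 (survivin) and Cdk1, the kinase of mitotic entry, fell by 0.29 and 0.30 (adjusted p = 0.0035 and 0.00422), and Tyms, which makes thymidylate, by 0.36 (adjusted p = 0.00216). Tretinoin 3 was the lowest for Birc5 at 68.9 CPM. The mitosis count was 3 without PBS 1, 2, 3, 6 or 7 or Tretinoin 5, 4 without PBS 5 and 11 without Tretinoin 9, and the replication count was 3 without PBS 1 or Tretinoin 5 and 10 without Tretinoin 1. With all 39 tumours in one fit they were 2 and 1.

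Some housekeeping genes fell slightly. Of 31 ribosomal protein genes 6 fell (19.4%), and of 24 genes of oxidative phosphorylation 6 fell (25%), beside 8.95% of all genes. Their medians were -0.17 and -0.14, and none were higher. Rplp0, a large-subunit stalk protein, fell by 0.25 and Ndufs1, of complex I, by 0.17 (adjusted p = 0.0214 and 0.0216). The ribosomal count was 2 without Tretinoin 2, 3 without PBS 1 or 2 and 11 without Tretinoin 1, and that of oxidative phosphorylation 2 without Tretinoin 2 and 10 without PBS 4. Tfrc, the transferrin receptor, fell by 0.68 (SE 0.15, adjusted p = 0.0035), and G0s2, an inhibitor of fat breakdown, rose by 1.25 (SE 0.22, adjusted p = 0.000436).

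**Figure D4:**
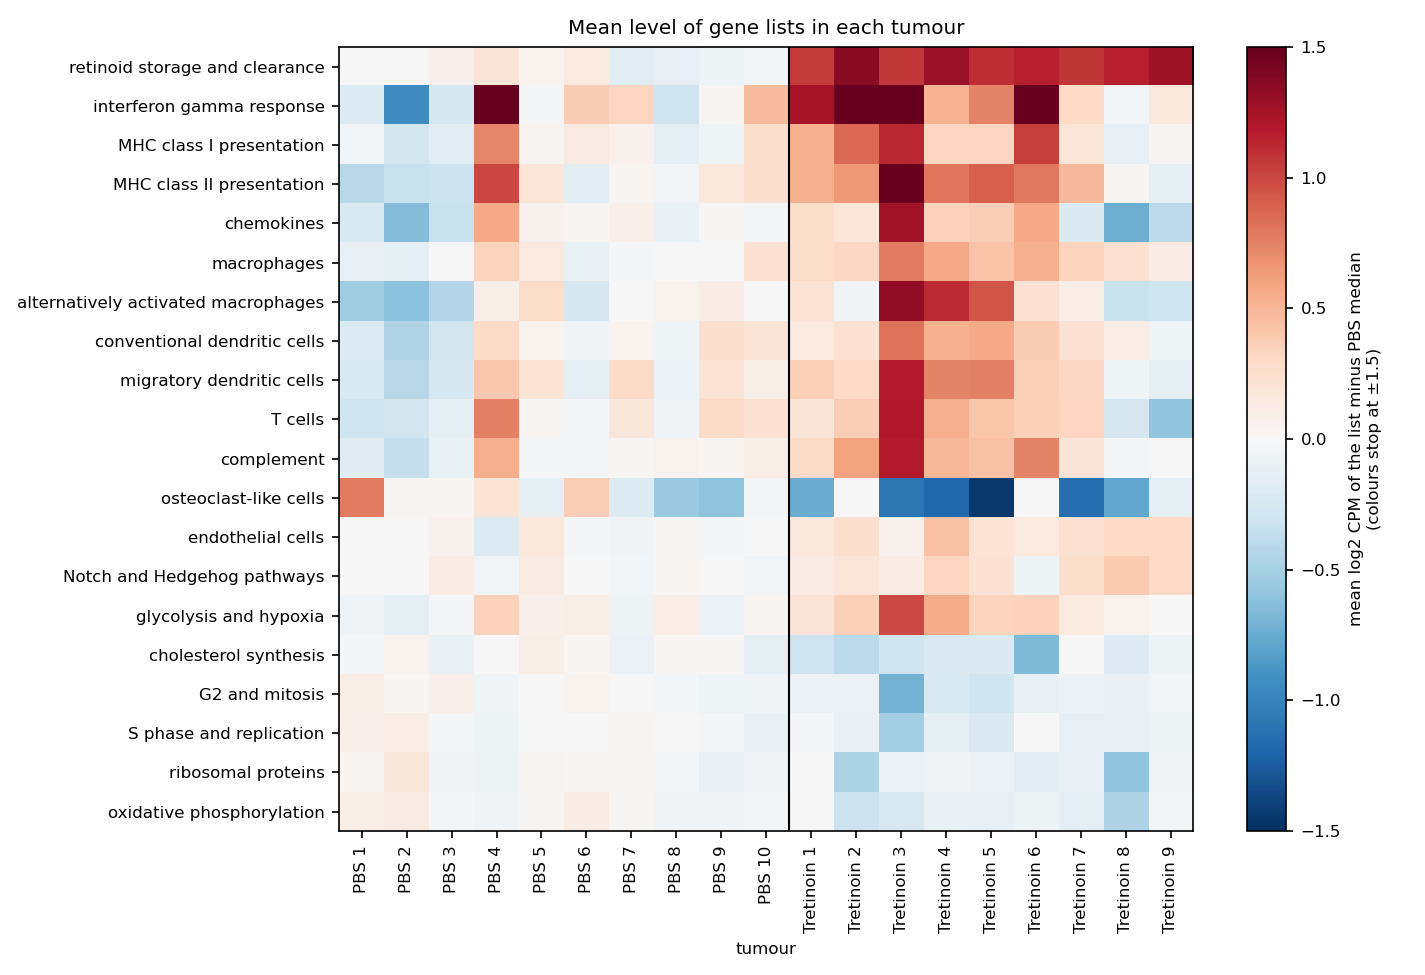
Mean log2 CPM of the tested genes of 20 lists in each tumour, less the median of the PBS tumours (colour, red higher and blue lower, stopping at 1.5 either way), with the 10 PBS tumours left of the line and the 9 tretinoin tumours right of it. Retinoid storage and clearance is high in all 9 tretinoin tumours, interferon gamma genes are high in tretinoin tumours 1, 2, 3 and 6 and in PBS 4, and Tretinoin 3 is high in most leukocyte lists and low in mitosis and replication.

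Few markers of tissue around the tumour passed the test. None of 6 skin, 14 skeletal muscle or 6 erythroid genes passed by edgeR or DESeq2, and none had an unadjusted p below 0.05 by edgeR. Of 10 adipocyte and 6 nerve genes 1 each rose (10% and 16.7%, near the 11.5% of all genes), Lipe (0.44, adjusted p = 0.00944) and Mbp (0.41, adjusted p = 0.00957). Muscle was present in every tumour, with a summed level of 676 to 3090 CPM after PBS and 690 to 2920 CPM after tretinoin, and Myh4, a fast myosin, had a log2 fold change of 0.20 (SE 0.38, adjusted p = 0.74). Skin markers summed to at most 58.2 CPM in any tumour, and the cornified envelope genes Flg and Lor were at or near 0. Of 7 tested neutrophil genes none passed by edgeR or DESeq2, and 1 had an unadjusted p below 0.05 by edgeR. The defining markers Ly6g and Mpo did not exceed 0.43 and 0.25 CPM. The summed level of the list was 216 to 623 CPM after PBS and 182 to 440 CPM after tretinoin. It includes Mmp9, which is in the osteoclast list too, at 286 ± 112 CPM after PBS and 207 ± 78.4 CPM after tretinoin. Mmp9 had a log2 fold change of -0.46 (SE 0.25, adjusted p = 0.195). The part of these cells in the results above was not tested.

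With ICT present, the tretinoin effect was measured in other tumours, 10 against 10. By name, the tumours after tretinoin with ICT made series 2 and 4, and those after ICT series 6 and 8. No series holds both treatments here either, so that treatment and any batch that follows the series cannot be told apart. The same limit holds for the interaction below. Of the 213 genes called higher with tretinoin alone, 202 were tested with ICT and 198 had the same direction. Of the 202, 57 also passed an adjusted p below 0.05 in that direction (28.2%), beside 1.57% of all genes tested with ICT. By the full threshold, 52 genes were higher (0.366%) and 4 lower (0.0282%). The share that passed was 71.2% (37 of 52) among genes whose groups did not overlap without ICT and 13.3% (20 of 150) among those whose groups did. Of the called retinoid genes, 5 of 6 tested passed. Of the 19 interferon genes none passed by edgeR and 4 by DESeq2, 16 had an unadjusted p below 0.05 by edgeR, and all 19 had the same direction, with a median log2 fold change of 0.83 against 1.39 without ICT. Of the 19 genes called lower, 17 were tested and 4 passed. Across the 14046 genes tested in both comparisons, which share no tumour, the log2 fold changes correlated at r = 0.621, where genes are not independent replicates.

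A small share of genes differed in their tretinoin effect between the settings. In a test of the interaction over all 39 tumours, the effect was smaller or more negative with ICT for 40 of 14977 genes (0.267%) and larger for 6 (0.0401%). By DESeq2 the counts were 72 and 13, and by edgeR without a filter on low counts 25 and 4. Cyp26b1 rose by 2.84 with ICT against 5.19 without it, a difference of -2.36 (adjusted p = 5.87e-06), and Dhrs3 by 1.48 against 2.66, a difference of -1.19 (adjusted p = 3.37e-07). Lgr6, Smad3 and Slc25a51 also rose less with ICT, by 0.99, 0.29 and 0.54 (adjusted p of the difference = 0.00173, 9.42e-05 and 0.0231). For Pitpnc1 and Adm the log2 fold changes with ICT were -0.06 and 0.22 and did not pass (adjusted p = 0.67 and 0.462), and the differences from tretinoin alone were -1.02 and -1.04 (adjusted p = 3.07e-09 and 0.00353). Nrip1, Rarg and Htr1b changed in the same direction in both settings (1.30, 0.56 and -0.92 with ICT), and their differences of -0.34, -0.37 and 0.27 did not pass the test of the interaction. No interferon gamma gene named here passed the test of the interaction by edgeR, where Gbp2b differed by -0.79 (adjusted p = 0.722).

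**Figure D5:**
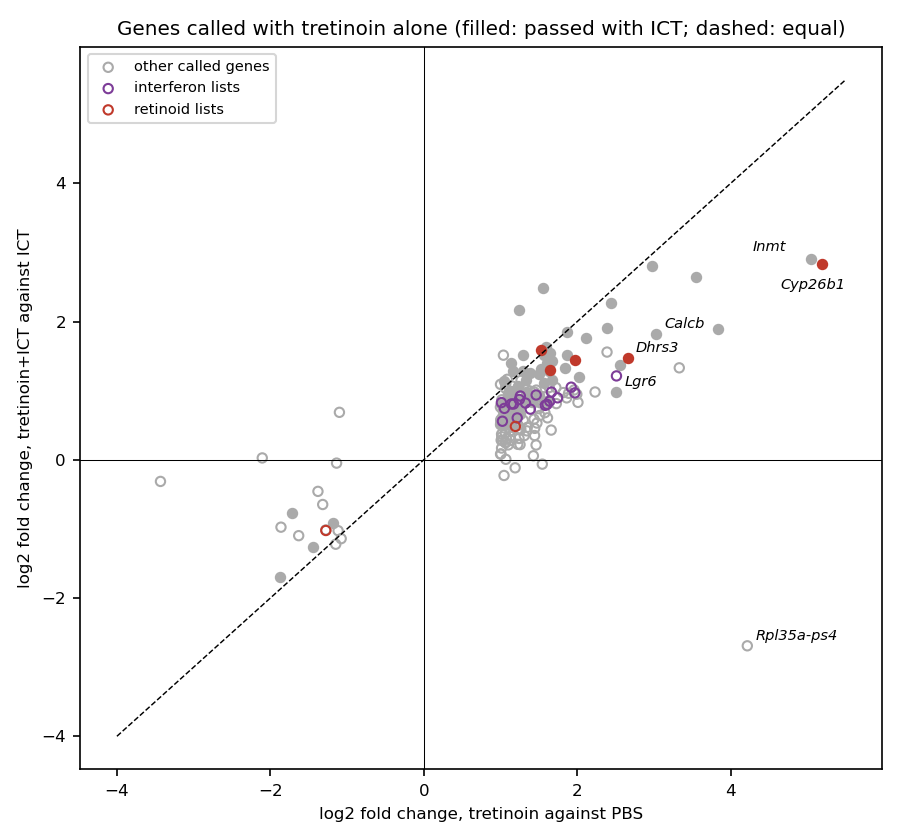
Log2 fold change of each gene called with tretinoin alone (x axis, tretinoin over PBS) against that with ICT present (y axis, tretinoin with ICT over ICT), with retinoid genes in red, interferon genes in purple and a dashed line of equality. Filled points passed an adjusted p below 0.05 with ICT. Of the 202 genes called higher and tested in both, 190 lie below the line, where genes chosen for a large difference on the x axis tend to lie, and the interaction passed for 8 of the 202, with Cyp26b1 at 5.19 and 2.84, and the interferon genes are all open circles.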

How the data were processed

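Whole tumours were sequenced as single-end reads on an Illumina NovaSeq. Per the study's methods, the authors aligned reads with HISAT2 (version 2.0.4) and summed them per gene with SummariseOverlaps, and deposited whole-number counts per gene, not normalised, for 39 tumours in 1 table. The build is named mm11 there, while the gene identifiers match GENCODE M21 on GRCm38, which gave the positions. The table held 39676 genes, with protein-coding genes covered at 97.7% on chromosomes 1 to 9, 11 and X and at 61.2% on 10 and 12 to 19, so that genes outside it were not analysed here.

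From these counts, genes were filtered with filterByExpr, scaled by TMM and tested with edgeR 4.0.16 (quasi-likelihood, robust) in R 4.3.3 over the 19 tumours, with Benjamini-Hochberg adjustment over all genes tested. The tretinoin effect with ICT was fitted on the other 20 tumours, and the interaction on all 39. Alternatives were DESeq2 1.42.0, its size factors, other filters, all tumours in one fit, single series, and each tumour left out. Leaving out each tumour for gene lists and named genes was added after seeing the data. The test was tested on simulated data. Depth limits genes near 0, and counting error covers only part of the spread between tumours.

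The lists and tests were chosen with earlier results of these data known. Genes named were the 10 largest rises and falls among called genes whose average log2 CPM was 1 or more, the 10 smallest p, up to 2 genes in each direction with the smallest p in each list, and genes that define a list. Batf3, Cxcl9, Gbp2, Gbp2b, Gbp3, Hk2, Hrh1, Igtp, Irf1, Irgm2, Itga4, Ncoa3, Nr2f2, Pdk4, Tgtp1 and Tgtp2 fell outside that rule and were chosen after their values were seen. Not every gene that the rule gives is described.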

Additional observations from a re-analysis of the deposited data

Results flagged for a closer look

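For each gene named with its values, the highest and the lowest tumour of each group were compared with the rest of that group. Of 284 groups of values, 26 held a tumour whose distance to its nearest neighbour was a large share of the whole range, and chance gives about 1 in 20. PBS 4 accounted for 9 of the 26 and Tretinoin 3 for 8. Both had the highest level of the interferon gamma genes in their group, though Tretinoin 6 was close to Tretinoin 3 (mean log2 CPM 8.42 and 8.43).

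PBS 4 stood above the other PBS tumours for Cd38 (19.3 CPM), Eomes (11.5 CPM), Etv5 (82.4 CPM), H2-Ab1 (430 CPM), H2-Q4 (410 CPM), Man2b1 (299 CPM), Tapbpl (121 CPM), Tnf (19.6 CPM) and Wars (130 CPM). Tretinoin 3 stood below the other treated tumours for Birc5 (68.9 CPM), Calcb (3.46 CPM), Epn2 (158 CPM), Hoxd13 (69.1 CPM), Mfap3l (4.04 CPM) and Ndufs1 (101 CPM), and above them for Etv5 (119 CPM) and Il1a (14.5 CPM). PBS 2 was the lowest PBS tumour for Itga4 (30.2 CPM), Ncoa3 (63.2 CPM) and Notch2 (186 CPM). The other cases were spread over 5 tumours. Tretinoin 2 was the highest treated tumour for Gm8451 (31.5 CPM) and Inmt (24.6 CPM), Tretinoin 4 the highest for Fzd5 (19.4 CPM) and Tretinoin 1 the lowest for Adamts1 (88.9 CPM). PBS 5 was the highest PBS tumour for Epn2 (121 CPM) and PBS 9 the lowest for Aifm2 (21.3 CPM).

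The tretinoin effect of 10 named genes differed with and without ICT, by edgeR's test of the interaction over all 39 tumours. It was smaller or more negative with ICT, as a difference in log2 fold change, for Cyp26b1 (-2.36, adjusted p = 5.87e-06), Dhrs3 (-1.19), Lgr6 (-1.52), Hspa1a (-1.31, adjusted p = 0.0391), Adm (-1.04), Pitpnc1 (-1.02), Smad3 (-0.52) and Slc25a51 (-0.27). For Sele, which fell with tretinoin alone, the difference was 0.86 (adjusted p = 0.0378). For the pseudogene Rpl35a-ps4 it was -6.91 (adjusted p = 0.0367), and its counts are uncertain.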

How the results depend on the processing

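The count of genes called higher, 213, lay between 131 and 267 when each tumour was left out in turn, lowest without Tretinoin 3, and the count called lower, 19, between 15 and 30, with 30 without Tretinoin 2 and 29 without Tretinoin 9. DESeq2 called 53 genes lower, and edgeR without a filter on low counts 44. With series 7 of tretinoin alone the count higher was 66 against PBS series 1 and 76 against series 5, and the count lower was 5 against series 1, in fits of fewer tumours. Without a fold change minimum 1645 genes were higher and 1284 lower. DESeq2 called 311 genes higher, 210 of them shared. With ICT, DESeq2 called 137 genes where edgeR called 56. For the interaction DESeq2 called 85 genes and edgeR without the filter 29, where 46 were called. The cause of these differences was not tested.

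By DESeq2 the genes that passed were 10 in place of 6 for MHC class I, 7 in place of 4 for class II, 5 in place of 3 for type I interferon, and, among genes lower, 8 in place of 5 for osteoclast genes, 10 in place of 6 each for ribosomal proteins and oxidative phosphorylation, and 6 in place of 3 for BMP and TGF-beta. With all 39 tumours in one fit, complement gave 8 in place of 15, cytokines 5 in place of 8, gut homing 2 in place of 4, Hox genes lower 0 in place of 3, and ribosomal proteins 11 in place of 6. With series 7 of tretinoin against PBS series 1 and 5, complement gave 1 and 1 in place of 15. Without both PBS 4 and Tretinoin 3, MHC class I gave 16, class II 8 and alternatively activated macrophages 4, and Cyp2s1 no longer passed. Over all named genes, 2332 values from fits with 1 tumour left out kept the direction and the call, and the other 176 kept the direction only. Under the other settings, 817 kept both and 239 the direction only. Depth limits statements on genes near 0 CPM.

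No paired analysis was possible because replicate numbers were given in accession order and pair no tumours.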

Other observations

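Matrix lists had shares of genes that passed that were mostly near or below those of all tested genes, 11.5% higher and 8.95% lower. Of 26 tested genes of matrix proteases and their inhibitors, 6 rose (23.1%) and 2 fell (7.69%), with the lysyl oxidase Loxl3 and the stromelysin Mmp10 higher (0.82 and 0.74, adjusted p = 0.000106 and 0.00791) and the urokinase receptor Plaur lower (-0.38, adjusted p = 0.00559). Of 27 genes of matrix glycoproteins and proteoglycans, 3 rose (11.1%) and 2 fell (7.41%), Has2, which makes hyaluronan, by 0.87 and Spp1, osteopontin, by 0.29 (adjusted p = 0.000394 and 0.00531). Without PBS 8 or Tretinoin 3 the number that rose was 5. Of 27 collagen genes, 3 rose (11.1%) and 1 fell (3.7%), and of 13 fibroblast genes 1 rose (7.69%), the stromal protease Fap (0.63, adjusted p = 7.32e-05). Lysosomal genes were higher in 7 of 31 tested cases (22.6%) and lower in 1 (3.23%), with Man2b1, a mannosidase, at 0.59 (adjusted p = 0.000264). The number higher was 12 without PBS 4.

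Genes of stress and rhythm held a few larger changes, beside 11.5% of all genes that rose and 8.95% that fell. Of 19 immediate early genes, 5 rose (26.3%) and 2 fell (10.5%). Ctgf, a target of YAP and TGF-beta, rose by 0.69 and Atf3, a stress-induced factor, by 1.15 (adjusted p = 0.000204 and 0.0109), while Fosl2 fell by 0.46 (adjusted p = 0.000686). Of 17 clock genes, 3 rose (17.6%) and 2 fell (11.8%), shares near those of all genes. The output factor Hlf was at 1.06 and the clock repressor Nr1d2 at -0.28 (adjusted p = 5.4e-05 and 0.00156). Of 13 glucocorticoid targets, 5 rose (38.5%) and none fell. Those that rose included Errfi1, a brake on EGF receptors (0.67, adjusted p = 6.89e-07). Ppargc1a, a coactivator of mitochondrial genes, fell by 0.91 (SE 0.15, adjusted p = 0.000182). Hspa1a, an inducible chaperone, rose by 1.19 (adjusted p = 0.00108), and it shares most of its sequence with Hspa1b (0.86, adjusted p = 0.00497), so that their counts may be split.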
